A study of Mus musculus with 12 samples.

Results

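Myocardial infarction was compared with sham surgery in cardiomyocyte isolates of newborn mice, as the average of the change seen after saline and the change seen after N-acetylcysteine (NAC). All 12 of the 12 RNA sequencing libraries of the study entered the comparison, 6 from infarcted (MI) and 6 from sham-operated pups, 3 of each surgery after each treatment; the 4 groups are called saline sham, saline MI, NAC sham and NAC MI. All pups were wild type; strain and sex are not given in the sources used here. On postnatal days 0 to 1 they were injected daily either with NAC, a thiol antioxidant and cysteine donor, or with saline. The NAC dose is labelled only as high, and it was given in saline buffered with HEPES (25 mM HEPES, 140 mM NaCl). On day 2 the left anterior descending coronary artery was occluded (MI) or a sham procedure was done, and tissue was taken on day 3, so every change is one of the first day after surgery. Ventricles of several pups were pooled and digested, and cardiomyocytes were enriched with a kit for neonatal heart cells. The series text names whole ventricles and the sample labels the left ventricle. How many pups went into a library, and whether the libraries of a group came from separate litters, is not given, so a p-value here compares a change only with the scatter among libraries, which may in part be technical.

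The newborn mouse heart is known for replacing muscle lost to an infarct in the first days of life, when its cardiomyocytes can still divide. Occlusion of the coronary artery kills muscle downstream of it, the surviving muscle switches on stretch and fetal genes, neutrophils and then monocytes enter from the blood, and fibroblasts and epicardial cells lay down provisional matrix. An isolate enriched for cardiomyocytes carries transcripts of the other cells too. In such bulk libraries, fewer cells of a type and less RNA per cell cannot be told apart.

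The largest rises and falls are here the 15 in each direction among the genes that passed, moved the same way after both treatments, reached a mean of 50 in the surgery where they were higher and had no predicted or clone name. Most of the genes with the largest rises encode inflammatory or injury proteins, and the promoters of 3 of them are shown because they hold short motifs of transcription factors known from such responses. The sequences are the 250 bases before the start of the gene, from RefSeq on GRCm38.p6, written 5′ to 3′ on the strand of the gene. Capitals mark each match, on either strand, to the AP-1 motif TGANTCA, the C/EBP motif TTGCNNAA, the ETS motif AGGAAG or the kappa-B motif GGANTNNCC, where N is any base. The promoter of Sprr1a, a small proline-rich protein of squamous epithelium and of injured tissue, lies at chr3:92485882-92486131 on the minus strand. The promoter of Cxcl2, a neutrophil chemokine, lies at chr5:90903649-90903898 on the plus strand, and that of Cxcr2, its receptor, at chr1:74153744-74153993 on the plus strand.
Sprr1a: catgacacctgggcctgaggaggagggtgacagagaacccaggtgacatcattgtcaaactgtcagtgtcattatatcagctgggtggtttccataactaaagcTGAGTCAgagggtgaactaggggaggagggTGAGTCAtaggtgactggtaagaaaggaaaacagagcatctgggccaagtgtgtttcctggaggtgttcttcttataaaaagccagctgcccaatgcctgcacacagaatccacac
Cxcl2: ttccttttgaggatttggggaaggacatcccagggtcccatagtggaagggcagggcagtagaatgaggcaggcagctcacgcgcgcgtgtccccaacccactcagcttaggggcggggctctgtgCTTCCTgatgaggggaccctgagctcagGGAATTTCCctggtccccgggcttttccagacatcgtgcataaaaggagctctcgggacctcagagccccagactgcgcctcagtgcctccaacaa
Cxcr2: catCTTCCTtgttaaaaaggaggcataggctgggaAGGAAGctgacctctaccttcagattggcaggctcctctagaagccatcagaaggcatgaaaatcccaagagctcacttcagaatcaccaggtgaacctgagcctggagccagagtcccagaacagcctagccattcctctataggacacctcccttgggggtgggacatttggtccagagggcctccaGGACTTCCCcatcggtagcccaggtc
The Sprr1a promoter held 2 AP-1 matches, which begin 146 and 116 bases before the start. It held none of the other 3 motifs. The Cxcl2 promoter held 1 kappa-B match, 96 bases before the start, and 1 ETS match. The Cxcr2 promoter held 1 kappa-B match, 26 bases before the start, and 2 ETS matches. No base in these 3 promoters belonged to more than 1 motif. Of the 15 genes with the largest rises, 11 had a promoter in the RefSeq table. An AP-1 match was present in 1 of these 11, a C/EBP match in 1, a kappa-B match in 2 and an ETS match in 6.

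Over windows of the same length, an AP-1 match was found in 9.90% of the 303 promoters of genes that were higher after MI, in 5.62% of the 89 promoters of genes that were lower, in 4.64% of the 14033 promoters of all tested genes and in 6.75% of the 32851 promoters in the table. The 303 promoters belong to 240 genes and the 89 to 70. A gene with several starts thus counts more than once, and the other called genes had no promoter in the table. The shares in the same order were 12.2%, 7.87%, 7.52% and 9.56% for the C/EBP motif and 39.3%, 31.5%, 28.6% and 29.5% for the ETS motif. For the kappa-B motif they were 16.5%, 4.49%, 12.2% and 10.8%. Each of the 4 motifs was thus found in a greater share of the promoters of genes that were higher after MI than in the promoters of all tested genes. These shares are descriptions without a test, and a match is a run of letters that need not be bound.

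Libraries held between 14353842 and 25118341 recovered reads. Markers of ventricular cardiomyocytes were present in every library, and no marker on the 13 cell type lists was at 0 in all 12 libraries. The summed normalized counts of the 16 measured ventricular markers ranged from 169101 to 470232 after sham surgery and from 347046 to 496637 after MI. Tnnt2, the cardiac troponin T gene, stood at 18173, 57520.0 and 69664 (lowest, median and highest of the 6 sham libraries) and at 60633, 65749 and 92705 after MI. Endothelial, fibroblast and leukocyte transcripts were also measured in all 12 libraries. Sample titles carry prefixes of unstated meaning (R207, R219, R230, R235 or none), and no prefix holds libraries of both surgeries, which means that an effect of surgery and one of prefix cannot be told apart. Titles also hold a letter from A to D and a digit, both of unstated meaning. The digit is 3 for NAC sham 1, NAC sham 3, saline sham 3 and NAC MI 1 and 2 for the other libraries. The libraries NAC sham 2, NAC MI 2 and saline sham 3 stood apart from the others of their surgery. By the mean log2 value of each list, NAC MI 2 was the lowest of the 6 MI libraries for neutrophil, monocyte, macrophage and endothelial markers. It was the highest for epicardial ones. By summed counts, monocyte markers were instead lowest in saline MI 1 (46006), with NAC MI 2 at 53429. NAC sham 2 was the highest sham library for resident macrophage markers. Saline sham 3 had 27.7% of its reads from the mitochondrial genome, the highest share among the sham libraries, with NAC sham 1 next at 24.8%. Both shares lay inside the MI range of 21.7% to 30.2%. Saline sham 3 also had the highest summed counts of cytosolic ribosomal protein genes of all 12 libraries (577414). It was thus set apart by traits that run against the change after MI, and larger counts of called genes without it may follow in part from that choice. Results that rest on these libraries are given with and without them. NAC sham 2 and NAC MI 2 were set apart by white cell markers that run against the change after MI, so larger counts of rising white cell genes without them follow in part from that choice and are given as description. Of all genes tested, 4.59% were higher and 0.727% lower without NAC sham 2 and NAC MI 2, and 8.32% and 6.23% without saline sham 3 as well.

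Of 14996 genes tested, 319 (2.13%) were higher and 92 (0.613%) were lower after MI at an adjusted p under 0.05 in limma, together 2.74% of the genes. The rises were larger than the falls. The median change of the 319 genes was 1.88 on the log2 scale (3.68-fold), and 145 of them changed at least 4-fold. The median change of the 92 genes was -0.91 (1.88-fold lower), and 6 of them changed at least 4-fold. Over all tested genes the median change was -0.003, and 49.7% of the genes had a fitted change above 0. The sham means of the genes that rose had a median of 55.2 normalized counts, against 308 for all tested genes, and 61 of the 319 had a sham mean under 10. Genes were kept at a mean of at least 10 over the 12 libraries, so a gene with a sham mean under 10 could enter only through its MI values, and this difference in level is fixed in part by that filter. The genes that fell had a median sham mean of 812. Protein-coding genes made up 313 of the 319 and 85 of the 92.

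All 6 MI libraries lay above all 6 sham libraries for 218 genes (1.45% of those tested) and below them for 114 genes (0.76%). Among the genes that passed the test, the surgeries did not overlap for 159 of the 319 rises and 45 of the 92 falls. Of the 319 genes higher after MI, NAC MI 2 was the lowest MI library for 141 and NAC sham 2 the highest sham library for 133. Of the 92 genes lower after MI, NAC sham 3 was the lowest sham library for 40 and saline sham 3 for 28.

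The direction was shared between the treatments for 318 of the 319 rises and all 92 falls. These genes were called on the average of both changes, which favours a shared direction, so the count is a description. Taken alone, the change after saline passed as higher for 128 of the 14996 genes and as lower for 1. The change after NAC passed for 19 and 0. No gene had a change that differed between saline and NAC at an adjusted p under 0.05 (0 of 14996 genes, 0.0%, in limma, with a smallest adjusted p of 0.9999). An unadjusted p under 0.05 for this difference was found for 305 of the 14996 genes, 57 of them among the 411 that passed the averaged test. Over all genes that share is smaller than the 0.05 that this threshold lets through on average where no gene differs. Among the 411 genes the share is larger than 0.05. With 3 libraries per group, the lack of a call does not show that no gene differed between treatments. DESeq2 called 1 such gene and edgeR called 0. With the title prefix as a block, which is possible for this difference only, limma called 17, none of them among the 411. That alternative was added after the data were seen, and its sham side sets NAC sham 2 alone against saline sham 1 and 2.

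**Figure D1:**
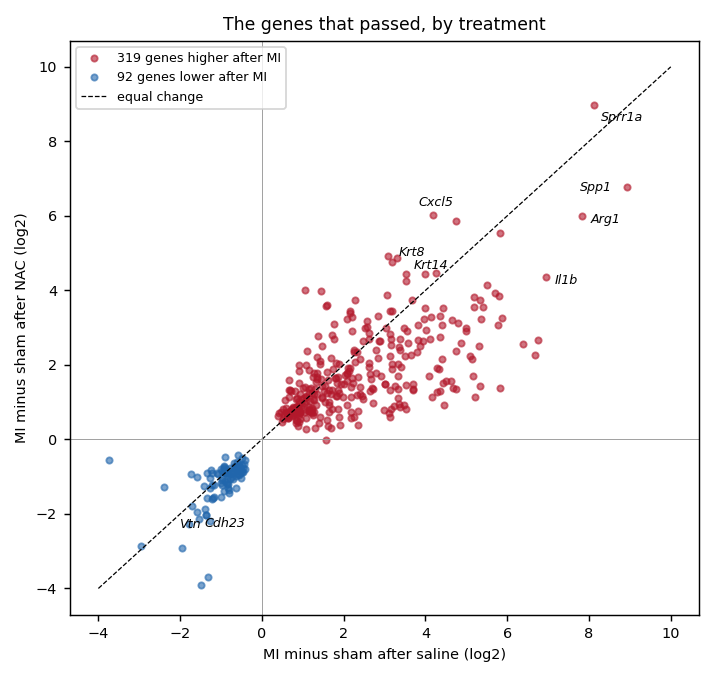
Change after MI (log2) in saline-treated pups on the x axis and in NAC-treated pups on the y axis for the 319 genes that were higher and the 92 that were lower in the averaged comparison, with the line of equal change. Sprr1a lies near the line (8.12 after saline and 8.97 after NAC), while Il1b lies below it (6.95 and 4.35), and the difference between treatments passed the test for none of these genes, also with the title prefix as a block.

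Genes of the stretched and failing heart muscle rose after MI. On the list of fetal and cardiac stress genes, 10 of 22 measured members were higher (45.5%, against 2.13% of all genes tested), 0 were lower, and the median change was 0.69. The count of rises on each list below is to be read against the same 2.13%. Acta1, the skeletal muscle actin that newborn and overloaded heart muscle uses (ENSMUSG00000031972, chromosome 8, 123891769 to 123894751 on GRCm38), stood at 815, 1443 and 2756 normalized counts in the lowest, median and highest sham library and at 3851, 5035 and 6610.1 after MI. All 6 MI libraries were above all 6 sham libraries, and the change was 3.40-fold (log2 1.77, SE 0.195, adjusted p = 0.000559 in limma). Nppb, which encodes the natriuretic peptide BNP released by stretched ventricles, stood at 536, 769 and 1562 after sham surgery and 1428, 3071 and 7871 after MI. Its surgeries overlapped, because saline MI 2 was below the highest sham library, NAC sham 3, and the rise passed the test (log2 1.92, SE 0.305, adjusted p = 0.00538 in limma). Nppa, the gene of the related peptide ANP, which ventricles make before birth, went from 37.7, 81.4 and 419.6 to 287, 464 and 1789.9 (log2 2.60, SE 0.463, adjusted p = 0.0105 in limma).

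Ankrd1, a stretch-responsive repeat protein of the sarcomere, stood at 4919.7, 6778 and 12293 after sham surgery and 15659.7, 18485 and 25648 after MI, with no overlap and a 2.72-fold change. Fhl1, a LIM protein that binds titin, moved from 2874 to 4388 to 5472 to 8079 (log2 1.04), and Cnn1, the calponin of smooth muscle and of immature heart muscle, from 94.3 to 303 to 609 to 1451 (log2 2.33). The surgeries did not overlap for either gene. The other members that rose were Rcan1, Ankrd2, Xirp2 and Actn1. The myosin heavy chains did not pass. Myh7, the fetal heavy chain, stood at 2503, 4441 and 19098 after sham surgery and at 8444, 9186 and 16977 after MI, and Myh6, the adult one, at 62701, 122001 and 169956 and 81768, 102537 and 181855. Their adjusted p-values were 0.311 and 0.982 in limma. None of the 23 measured genes of adult contraction and calcium handling passed (median change 0.03), and none of the 16 ventricular markers (median 0.17). Of 23 ion channel and connexin genes 0 rose and 1 fell. When NAC sham 2, NAC MI 2 and saline sham 3 were left out, 13 members of the stress list rose and 4 of the contraction list fell. In that setting 8.32% of all genes tested rose and 6.23% fell. The summed counts of the contraction list were lowest among the sham libraries in NAC sham 2 (310464) and highest after MI in NAC MI 2 (866402). Falls on that list thus follow in part from leaving these libraries out.

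Genes of epithelia rose in the same isolates. Sprr1a (ENSMUSG00000050359, chromosome 3, 92483952 to 92485895), whose AP-1 matches are shown above, was at 0 reads in 5 of 6 sham libraries and at 2.38 normalized counts in saline sham 3. After MI it stood at 283, 509 and 681 (lowest, median and highest library). It had 2 reads over the 6 sham libraries and 2802 over the 6 MI libraries, a ratio of 1481 per normalized read with an exact 95% counting interval of 410 to 12232 that leaves out the spread between libraries. Its change had the smallest p of all genes (adjusted p = 1.4e-07 in limma) and passed without any single library.

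Krt8 and Krt18 form the paired intermediate filament of simple epithelia and lie next to each other on chromosome 15 (Krt8 at 101996698 to 102004482). Krt8 stood at 12.9, 43.6 and 69.5 after sham surgery and 365, 520.4 and 1742 after MI (log2 3.97, SE 0.404, adjusted p = 0.000271 in limma), and Krt18 at 51.7, 78.3 and 91.8 and 429, 499.6 and 1172 (log2 2.88, SE 0.241, adjusted p = 0.000108 in limma). The surgeries did not overlap for either gene, and NAC MI 2 was the highest library of both. Krt7, another keratin of simple epithelia, went from 30.4 to 76.6 to 207.2 to 1609, again with NAC MI 2 highest, and Anxa8, an annexin of epithelia, from 7.94 to 31.2 to 69.2 to 652. Without NAC MI 2 the changes were 3.67 for Krt8, 2.66 for Krt18 and 2.21 for Krt7 on the log2 scale, and each passed. On the list of epicardial and simple epithelial markers, which holds the keratins, 6 of 19 measured members rose and 0 fell (median change 0.77). The others were Krt19, Upk1b and Aldh1a2, a retinoic acid enzyme of the epicardium. The 4 keratin calls remained without each library in turn, but those of Upk1b and Aldh1a2 did not. Aldh1a2 lost its call in 8 of the 12 cases (adjusted p up to 0.104 in limma). The epicardial markers Wt1, Tbx18, Upk3b and Msln were measured and did not pass. The summed counts of the list ranged from 5772 to 15986 after sham surgery and from 10207 to 47375 after MI. With NAC sham 2, NAC MI 2 and saline sham 3 left out, 8 of the 19 rose, against 8.32% of all genes tested, but the median change was 0.45. Whether the keratin transcripts came from epicardial cells or from heart muscle was not tested.

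**Figure D2:**
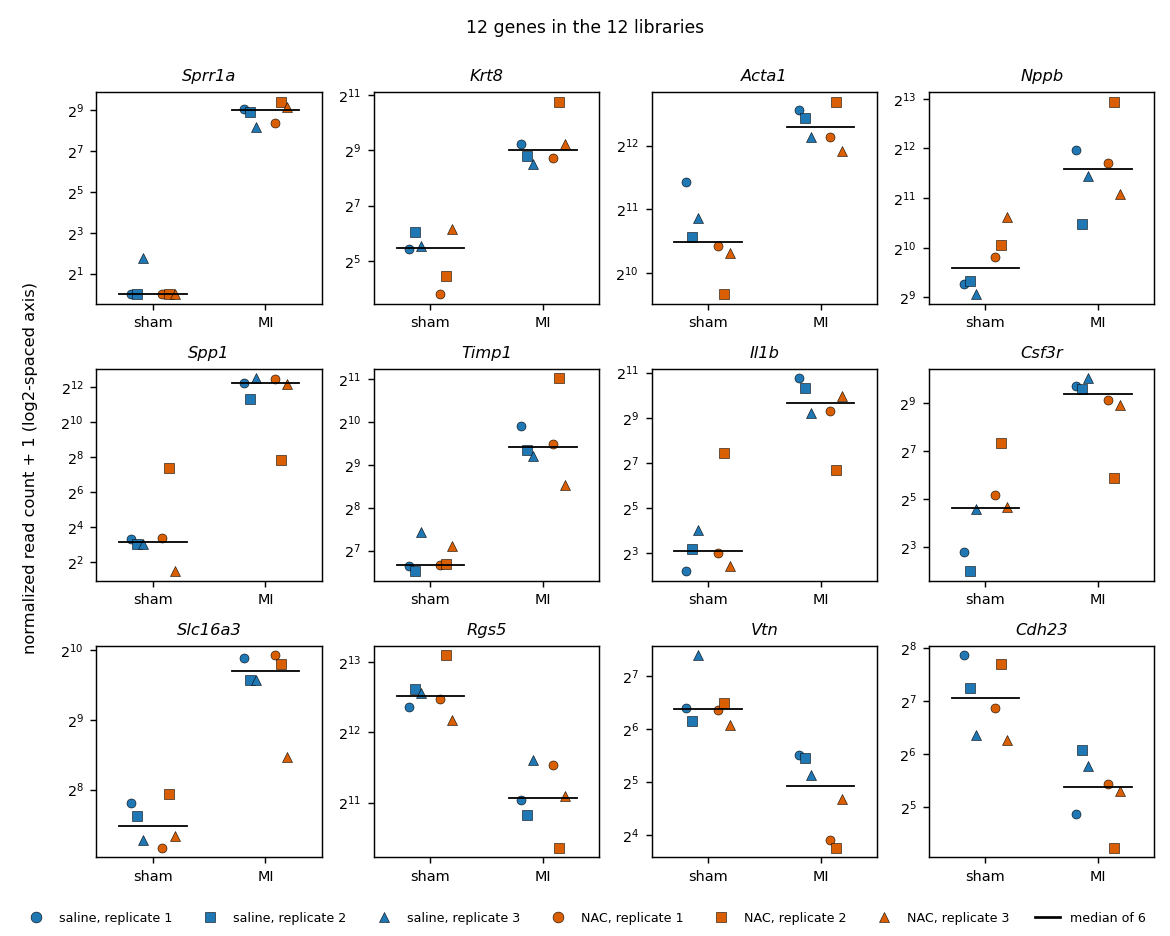
Normalized read count plus 1 (y axis, spaced by powers of 2) of 12 genes in the 6 sham and 6 MI libraries, with saline in blue, NAC in orange, one marker shape per replicate number and a black line at the median of each surgery. Replicate numbers do not pair libraries. Sprr1a, Krt8, Acta1, Spp1, Timp1 and Slc16a3 are separated upwards and Rgs5, Vtn and Cdh23 downwards, while NAC sham 2 and NAC MI 2 overlap across surgeries for Il1b and Csf3r.

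Several of the epithelial and injury genes are also known from injured nerve cells. Of 20 measured genes of that list, 4 rose, namely Sprr1a, Ptprn, Arg1 and Hspb1, and 0 fell (median change 0.70). Ptprn, a protein of secretory granules in nerve and endocrine cells, stood at 3.5, 9.53 and 11.9 after sham surgery and 45.2, 91.8 and 132 after MI (log2 3.29, SE 0.312, adjusted p = 0.000154 in limma). Hspb1, a small heat shock protein, had overlapping surgeries (1399 to 4972 and 3129.8 to 6843) and an adjusted p = 0.0466 in limma, and it kept the call only where the library left out was saline sham 3 or NAC MI 3 (adjusted p up to 0.135 otherwise). Genes of the gp130 receptor, which heart muscle uses to answer IL-6 family cytokines, were higher for 7 of 24 measured members and lower for 0, with a median change of 0.56. Among the ligands, Osm (oncostatin M) went from 2.63 to 21.4 to 12.6 to 337 and Il6 from 0.891 to 11.4 to 13.4 to 47.1. Il6 kept its call only where the library left out was saline sham 3, NAC sham 2, saline MI 2 or NAC MI 2 (adjusted p up to 0.128 in limma otherwise). Among the known targets, Serpina3n, an acute-phase protease inhibitor, stood at 16.6, 46.5 and 133 after sham surgery and 439, 636 and 878 after MI (log2 3.88, SE 0.437, adjusted p = 0.000634 in limma), and Timp1, an inhibitor of matrix proteases, at 91.3, 101 and 173 and 369, 680.0 and 2067 (log2 2.74). The surgeries did not overlap for Serpina3n and Timp1. The acute-phase protein Hp, the transcription factor Cebpb and the kinase Pim1 were the other 3.

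Genes of wound matrix rose. On the matricellular list 8 of 31 measured members were higher and 0 lower, with a median change of 0.65, and the 8 were Spp1, Lgals3, Cthrc1, Ccn2, Cd44, Tgfbi, Lgals1 and Tnc. Spp1, which encodes osteopontin, a matrix protein of macrophages and injured muscle, stood at 1.78, 7.92 and 165 after sham surgery and 229.9, 4767 and 5823 after MI. The highest sham library was NAC sham 2 and the lowest MI library NAC MI 2, each far from the other 5 of its surgery. The change of Spp1 was 7.86 (SE 0.92, adjusted p = 0.000745 in limma) with these 2 libraries and 9.43 without them. Cthrc1, a collagen triple helix protein of activated fibroblasts, went from 256, 361 and 457 to 568, 821 and 938 with no overlap (log2 1.19). Ccn2, the connective tissue growth factor, had overlapping surgeries, at 565 to 1543 and 1382 to 3696 (adjusted p = 0.0132 in limma).

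On the list of S100 proteins and annexins 4 of 18 rose (S100a6, Anxa8, S100a8 and S100a9) and 0 fell, with a median of 0.48. Among matrix proteases and their inhibitors 4 of 25 rose and 0 fell (median 0.50). Mmp19, a matrix metalloproteinase, stood at 25.7, 39.2 and 63.2 after sham surgery and 130.1, 164 and 210.2 after MI (log2 2.03, SE 0.249, adjusted p = 0.000937 in limma). The calcium-binding protein S100a6 moved from 201 to 533 to 1231 to 2552 without overlap (log2 2.29, SE 0.207, adjusted p = 0.000131 in limma). On the collagen list 4 of 29 members rose (P4ha3, Col8a1, Col12a1 and P4ha1) and 0 fell, with a median of 0.59. None of the 4 collagen-list calls remained without saline sham 1. On the fibroblast marker list 1 of 19 rose, Medag, with a median of 0.52 and summed counts of 122023 to 182205 after sham surgery and 167738 to 285280 after MI. The part of fibroblast number in the matrix genes was not tested.

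Neutrophil markers had the largest median change of the 42 lists. All 21 measured neutrophil markers had a change above 0, 11 passed as higher and 0 as lower, and the median change was 2.67. Of the 11, Stfa1 and Stfa2 are near-identical copies whose reads may be split between them. The summed counts of these markers ranged from 320 to 1897 with a median of 1242 after sham surgery and from 1725 to 8475 with a median of 7676 after MI. Csf3r, the receptor for the growth factor of granulocytes, stood at 2.98, 23.3 and 160.3 after sham surgery and 56.8, 664 and 1046 after MI (log2 4.46, SE 0.6251, adjusted p = 0.00269 in limma). Its surgeries overlapped only through NAC sham 2 (160.3) and NAC MI 2 (56.8), and without both libraries the change was 5.40. Il1r2, the decoy receptor for interleukin 1, went from 0, 2.94 and 4.68 to 37.9, 87.6 and 164 with no overlap (log2 4.82, SE 0.444, adjusted p = 0.000143 in limma). Mmp9, a gelatinase stored in neutrophil granules, went from 13.8, 39 and 74.9 to 83.4, 814 and 1179, and Cxcr2 from 0, 8.26 and 20.8 to 35.4, 234 and 304, both without overlap. In the 10 libraries other than NAC sham 2 and NAC MI 2, 17 of the 21 markers rose, against 4.59% of all genes tested. That count follows in part from leaving out libraries set apart by white cell markers and is given as description.

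The monocyte list had 4 of 13 members higher (Ccr2, Cd14, Plac8 and Ly6c2), 0 lower and a median of 2.14. Plac8 kept its call only where the library left out was saline sham 2, NAC sham 1, saline sham 3 or NAC MI 2 (adjusted p up to 0.132 in limma otherwise), and Ly6c2 only for saline sham 3, NAC sham 2 or NAC MI 2 (up to 0.102). Ccr2, the receptor by which monocytes leave the marrow, stood at 3.57, 7.95 and 8.93 after sham surgery and 20.2, 239.8 and 393 after MI (log2 4.49, SE 0.544, adjusted p = 0.000882 in limma). NAC MI 2 held the lowest MI value, and the sham libraries lay close together. Of 16 markers of resident macrophages none passed, with a median of 1.47 and a smallest adjusted p of 0.0809 in limma. At an unadjusted p under 0.05 in limma were 10 of the 16, against 3034 of all 14996 genes tested. Cx3cr1, a receptor of resident macrophages, stood at 38.7, 110.1 and 180.1 after sham surgery and 48, 340.0 and 541 after MI. With NAC sham 2 and NAC MI 2 left out, 11 of the 16 macrophage markers and 11 of the 13 monocyte markers rose, against 4.59% of all genes tested. These 2 libraries were set apart by such markers, so both counts follow in part from leaving them out and are given as description. Marco, a macrophage receptor, and Cd5l, a secreted macrophage protein, were among the 15 largest rises. They had 0 reads in most sham libraries and rose to 15.2 to 98.8 and 7.58 to 129. Their highest sham values, 37.7 and 8.76, were both in NAC sham 2. Fgr, a kinase of myeloid cells, went from 0 to 41.2 to 17.7 to 319.7, and Hcar2, a receptor for the ketone body beta-hydroxybutyrate on myeloid cells, from 0 to 2.63 to 31.6 to 116. Arg1, the arginase of repair macrophages, stood at 0, 5.78 and 33.3 and 75.8, 979 and 1183, without overlap (log2 6.91, SE 0.816, adjusted p = 0.000773 in limma).

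Genes of chemokines and cytokines rose as well. Among chemokines and their receptors 9 of 30 were higher and 0 lower, with a median of 1.89. Cxcl2 stood at 4.76, 13 and 50.8 after sham surgery and 48, 447 and 906 after MI (log2 4.54, SE 0.661, adjusted p = 0.00318 in limma), and its lowest MI value, in NAC MI 2, was just below its highest sham value, in NAC sham 2. Cxcl5, a neutrophil chemokine of epithelia and muscle, was at 0 in most sham libraries, at 7.14 in saline sham 3, and at 26.3, 51.8 and 106 after MI. Its highest value was in NAC MI 2, the library with the fewest neutrophil transcripts among the 6 after MI. Ccl6, a macrophage chemokine, went from 2.34 to 192 to 45.5 to 1062, and its call was lost without saline sham 1 or saline MI 1 (adjusted p up to 0.0534 in limma). In the interleukin-1, TNF and NF-kB list 9 of 35 rose and 0 fell (median 0.93). Il1b, the inflammasome cytokine, stood at 3.62, 7.48 and 169.9 after sham surgery and 101, 811 and 1716 after MI (log2 5.65, SE 0.796, adjusted p = 0.00274 in limma). Its values overlapped only through NAC sham 2 and NAC MI 2, and the change without them was 6.93. Without these 2 libraries 20 of the 30 chemokine genes and 18 of the 35 interleukin-1 list genes rose, against 4.59% of all genes tested. Both libraries were set apart by white cell markers, so these 2 counts follow in part from that choice. Among complement and coagulation genes 5 of 29 rose and 0 fell (median 0.77). Of 34 interferon-stimulated genes 0 rose and 1 fell, Cmpk2, a nucleotide kinase, from 201 to 439.7 to 46.7 to 155 (adjusted p = 0.0367 in limma), with a list median of -0.26. Cmpk2 lost its call without saline sham 2, NAC sham 1, saline MI 1, 2 or 3 or NAC MI 1 (adjusted p up to 0.106). The list median was 0.21, with 5 genes higher and 1 lower, without NAC sham 2 and NAC MI 2. Of all genes tested, 4.59% were higher and 0.727% lower in that setting. NAC sham 2 had the highest summed counts of this list among all 12 libraries (22969), so that shift follows in part from leaving it out.

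**Figure D3:**
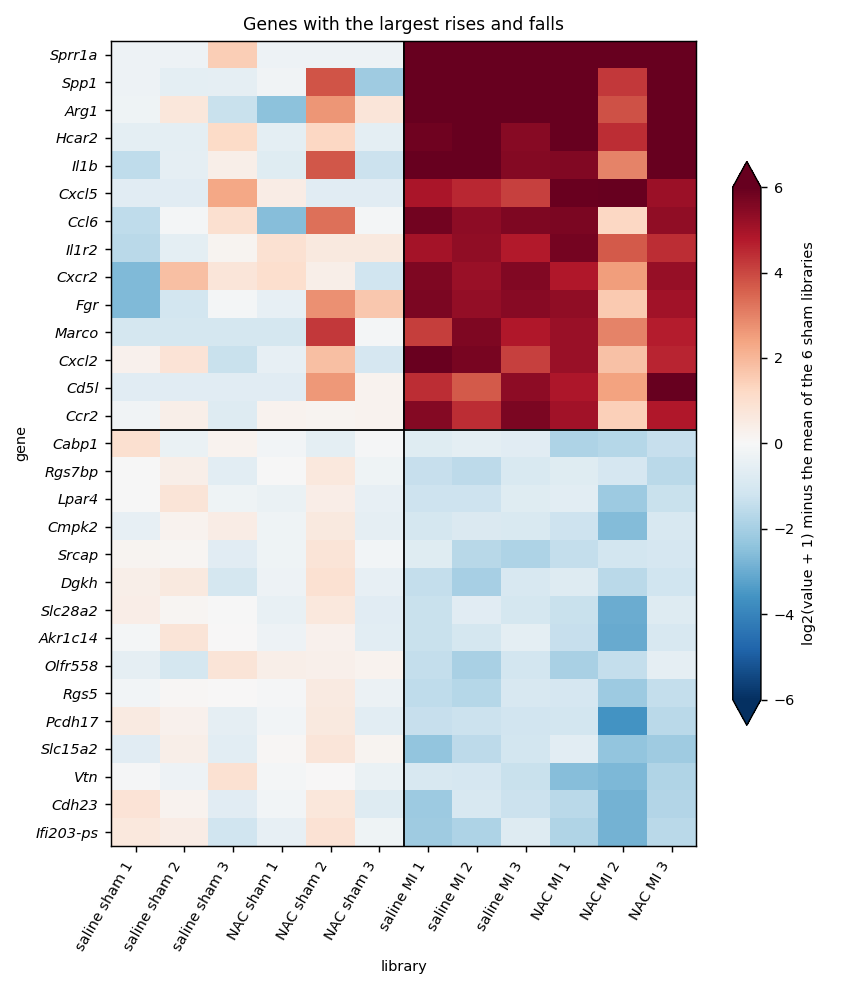
Genes with the largest rises (14 shown) and the 15 with the largest falls (rows), both under the limits on level and name given above, in the 12 libraries (columns), coloured by log2(value + 1) minus the mean of the 6 sham libraries, with colours capped at 6 in each direction. The column of NAC MI 2 is paler than those of the other MI libraries for leukocyte genes such as Ccr2, Fgr and Ccl6 but not for Sprr1a, and the column of NAC sham 2 is red for Spp1, Il1b and Marco.

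Part of the genes of glucose use rose. On the glycolysis and hypoxia list 7 of 32 members were higher and 0 lower, with a median of 0.36. Slc16a3, which encodes the lactate exporter MCT4, stood at 143, 178 and 243 after sham surgery and 352, 829 and 974 after MI (log2 2.01, SE 0.243, adjusted p = 0.000882 in limma), with NAC MI 3 the lowest MI library. The glycolytic enzyme Pgam1 moved within narrow ranges, from 814 to 1013 to 1366 to 1603, with no overlap (log2 0.73), and Egln3, an oxygen sensor induced by hypoxia, from 556 to 849 to 996 to 1408 (log2 0.72). Bnip3, Slc2a1, P4ha1 and Eno1 were the other 4, and none of these 4 calls remained without saline sham 1 or without saline MI 1 (adjusted p up to 0.138 in limma over all single libraries left out). Slc2a1 lost its call in 8 of the 12 cases, P4ha1 and Eno1 in 9 each and Bnip3 in 3. Of 31 genes of fatty acid oxidation 0 passed in either direction (median -0.01).

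The 13 measured transcripts of the mitochondrial genome had a median change of 0.81 and none passed. Their share of reads was 7.65% to 27.7% (median 16.6%) after sham surgery and 21.7% to 30.2% (median 27.1%) after MI. The difference was 8.58 percentage points, with p = 0.045 in a two-sided exact permutation test within treatments, whose smallest possible p is 0.005. Leaving out a single library raised this p above 0.05 in 9 of 12 cases. The 40 nuclear genes of the respiratory chain had a median of 0.28, with 39 above 0 and 0 called. That median was -0.02 when NAC sham 2 and NAC MI 2 were left out. All 44 cytosolic ribosomal protein genes had a change above 0, with a median of 0.43, and 0 passed (smallest adjusted p 0.0703 in limma). An unadjusted p under 0.05 in limma was found for 23 of the 44, against 3034 of all 14996 genes tested. Of the 44, 39 passed as higher when NAC sham 2, NAC MI 2 and saline sham 3 were left out, against 8.32% of all genes tested. Saline sham 3 had the highest summed counts of this list among all 12 libraries (577414, against 314332 to 504665 after MI). That count of 39 thus follows in part from leaving it out and is given as description. Globin transcripts of red cells took 1.07% to 6.54% of reads after sham surgery and 1.42% to 7.05% after MI, a difference of 0.580 points (exact permutation p = 0.385).

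Of the genes that respond to oxidants through NRF2 and of glutathione genes, 3 of 32 rose and 0 fell (median 0.33). Gsr, glutathione reductase, stood at 525, 579.5 and 749 after sham surgery and 826, 877 and 1014 after MI (log2 0.60, SE 0.112, adjusted p = 0.0149 in limma). Akr1b8, an aldo-keto reductase, moved from 71.3 to 231 to 260.2 to 630.3, and Pgd, a source of NADPH, from 689.5 to 1029 to 1004 to 1504. None of these 3 calls remained without saline MI 1 (adjusted p of 0.0601 for Gsr and 0.0514 for Akr1b8 in limma), and that of Pgd was also lost without saline sham 1, NAC sham 1, NAC sham 3, saline MI 2, saline MI 3 or NAC MI 1 (adjusted p up to 0.0816). Hmox1, heme oxygenase, and Slc7a11, the cystine importer, did not pass. Hmox1 stood at 136, 266 and 1798 and 209.7, 1079 and 1338, with the highest value of all 12 libraries in NAC sham 2, and Slc7a11 at 2.17, 16.5 and 42.9 and 18.9, 43.8 and 78.8. The ATF4 list had 2 of 28 higher (Phgdh and Pycr1) and 0 lower, and neither call remained without each library in turn. On the heat shock list 1 of 29 was higher (Hspb1) and 0 lower, a share of 3.45% that lies near that of all genes. Among AP-1 and other early response genes 2 of 26 rose, Runx1 and Ier3, and 0 fell, with a median of -0.01. Runx1, a transcription factor of blood and of injured heart muscle, went from 29.8, 34.8 and 111 to 101, 163 and 173 (log2 1.80, SE 0.268, adjusted p = 0.00337 in limma).

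Genes of the muscular and pericyte layer of vessels fell. On the list of smooth muscle cells and pericytes 4 of 15 members were lower, Rgs5, Vtn, Mylk and Notch3, against 0.613% of all genes tested, and 1 was higher, Cnn1 (median -0.53). Rgs5, a regulator of G protein signalling that marks pericytes (ENSMUSG00000026678, chromosome 1, 169655501 to 169695813), stood at 4609, 5836 and 8760.1 after sham surgery and 1311, 2151 and 3106 after MI. All MI libraries were below all sham libraries, a fall of 2.77-fold (log2 -1.47, SE 0.22, adjusted p = 0.00344 in limma), and the call remained without any single library. Vtn, which encodes the adhesion protein vitronectin, stood at 66.8, 82.6 and 168 and 12.6, 29.5 and 44.9, also without overlap (log2 -1.74, SE 0.277, adjusted p = 0.00553 in limma). Mylk, the kinase that activates smooth muscle myosin, went from 488 to 913 to 291 to 436, and Notch3, the Notch receptor of mural cells, from 1890.3 to 2681 to 937 to 1758. Mylk lost its call without saline MI 1 (adjusted p = 0.0563 in limma), and Notch3 without saline sham 1, saline MI 1 or saline MI 2 (up to 0.0830). The summed counts of the list were 31227 to 39875 after sham surgery and 25962 to 30592 after MI. Without NAC sham 2 and NAC MI 2, Rgs5 changed by -1.18 and Vtn by -1.60, and 5 of the 15 fell, against 0.727% of all genes tested.

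Of 24 endothelial and endocardial markers, 21 had a change below 0, with a median of -0.51. In limma 13 had an unadjusted p under 0.05, against 3034 of all 14996 genes tested. None passed (smallest adjusted p 0.0633 in limma). Aqp1, the water channel of capillaries, had that smallest p and stood at 3029.8, 4997 and 5847 after sham surgery and 2352, 3027 and 3644 after MI. The summed counts of the list were 76449 to 160729 after sham surgery and 50743 to 107656 after MI, with the lowest in NAC MI 2. The median was -0.22 when NAC sham 2 and NAC MI 2 were left out. Outside that list, 4 falls are given as single genes. They were picked after their values were seen, with no list or count behind them. Plxnd1, a semaphorin receptor, went from 10963 to 20985 to 3873 to 10893, Cavin2, a protein of caveolae, from 4970.0 to 8189.9 to 2702 to 4391, and Sox7, an endothelial transcription factor, from 1473 to 2075 to 597 to 1266. The surgeries did not overlap for these 3 genes. Nos3, the endothelial nitric oxide synthase, overlapped, at 839 to 1319.9 and 448 to 894 (adjusted p = 0.0263 in limma). All 4 calls were lost without saline MI 1. Those of Plxnd1, Sox7 and Nos3 were also lost without saline sham 1, that of Plxnd1 without NAC sham 1 or saline MI 3, that of Sox7 without saline MI 2, and that of Nos3 without saline sham 2, NAC sham 1 or saline MI 2 or 3. The adjusted p was then at most 0.0816 (Plxnd1).

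The 15 largest falls ran from -1.15 (Cabp1) to -1.83 (Ifi203-ps) on the log2 scale, and most belonged to no list. The 6 falls of at least 4-fold are not among them, since each had a sham mean under 50 and 3 have a predicted name. The other 3 are Gpr20, Trpv3 and Halr1 (log2 -2.70, -2.50 and -2.03), at sham means of 21.9, 27.4 and 22.5. Ifi203-ps is a pseudogene of an interferon-inducible family, whose reads may come from its relatives. Cdh23, a cadherin of hair cells, stood at 75.7, 133 and 233 after sham surgery and 17.7, 40.3 and 66.9 after MI (log2 -1.77, SE 0.359, adjusted p = 0.0203 in limma). Pcdh17, a protocadherin, stood at 927, 1459.7 and 2091 and 117, 554 and 650.3, with NAC MI 2 far below the other MI libraries (log2 -1.69, SE 0.361, adjusted p = 0.0266 in limma). The surgeries did not overlap for either gene. Without NAC MI 2 the change of Pcdh17 was -1.32. Lpar4, a receptor for lysophosphatidic acid, went from 547 to 1292 to 169 to 493, and Slc28a2, a nucleoside importer, from 461 to 1153 to 94.7 to 466. Cdh23 lost its call without saline sham 1 or saline MI 1 (adjusted p up to 0.0680 in limma). Lpar4 lost it without saline sham 1 or 2, NAC sham 1 or saline MI 1 or 2 (up to 0.0904), and Pcdh17 without any of these 5 or without saline MI 3 (up to 0.0814). Slc28a2 kept it only where the library left out was saline sham 3, NAC sham 3, NAC MI 2 or NAC MI 3 (up to 0.136 otherwise). Kit, a receptor of mast cells and some endothelial cells, was the 1 member of 12 on the lymphocyte and mast cell list that fell, from 827 to 1738 to 464 to 920.4, and it kept the call only where the library left out was saline sham 3, NAC sham 3 or NAC MI 3 (adjusted p up to 0.124 in limma otherwise).

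No cell cycle gene of the lists passed. Of 36 genes of G2 phase and mitosis 33 had a change below 0, with a median of -0.28 and a smallest adjusted p of 0.125 in limma. An unadjusted p under 0.05 in limma was found for 18 of the 36, against 3034 of all 14996 genes tested. The list median was -0.58 after saline and 0.00 after NAC, and the difference between the treatments passed for none of the 36. Mki67, a nuclear protein of dividing cells, stood at 1139, 3362 and 4078 after sham surgery and 974, 2306 and 3044 after MI, and its lowest sham value was in saline sham 3. Ccnb1, the cyclin of mitosis, stood at 706, 797 and 1199 and 528, 767 and 1117, and Cdk1, its kinase, at 1040.5, 1167 and 1505 and 803, 1022 and 1253. All 3 overlapped widely. Of 33 genes of DNA replication 28 had a change below 0 (median -0.19). Rrm2, the ribonucleotide reductase subunit of S phase, had all MI libraries below all sham libraries, at 1626 to 1777 and 1211 to 1506, with an adjusted p = 0.102 in limma. When NAC sham 2, NAC MI 2 and saline sham 3 were left out, 10 of the 36 mitotic genes and 2 of the 33 replication genes passed as lower. Of all genes tested, 6.23% did so in that setting, and the replication genes lie near that share. Saline sham 3 had the lowest summed counts of both lists among the sham libraries (25252 and 26755). These counts of falls thus follow in part from leaving it out and are given as description. Among CDK inhibitors and p53 targets 2 of 28 rose, Pmaip1 and Phlda3, and 0 fell. Neither call remained without each library in turn.

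**Figure D4:**
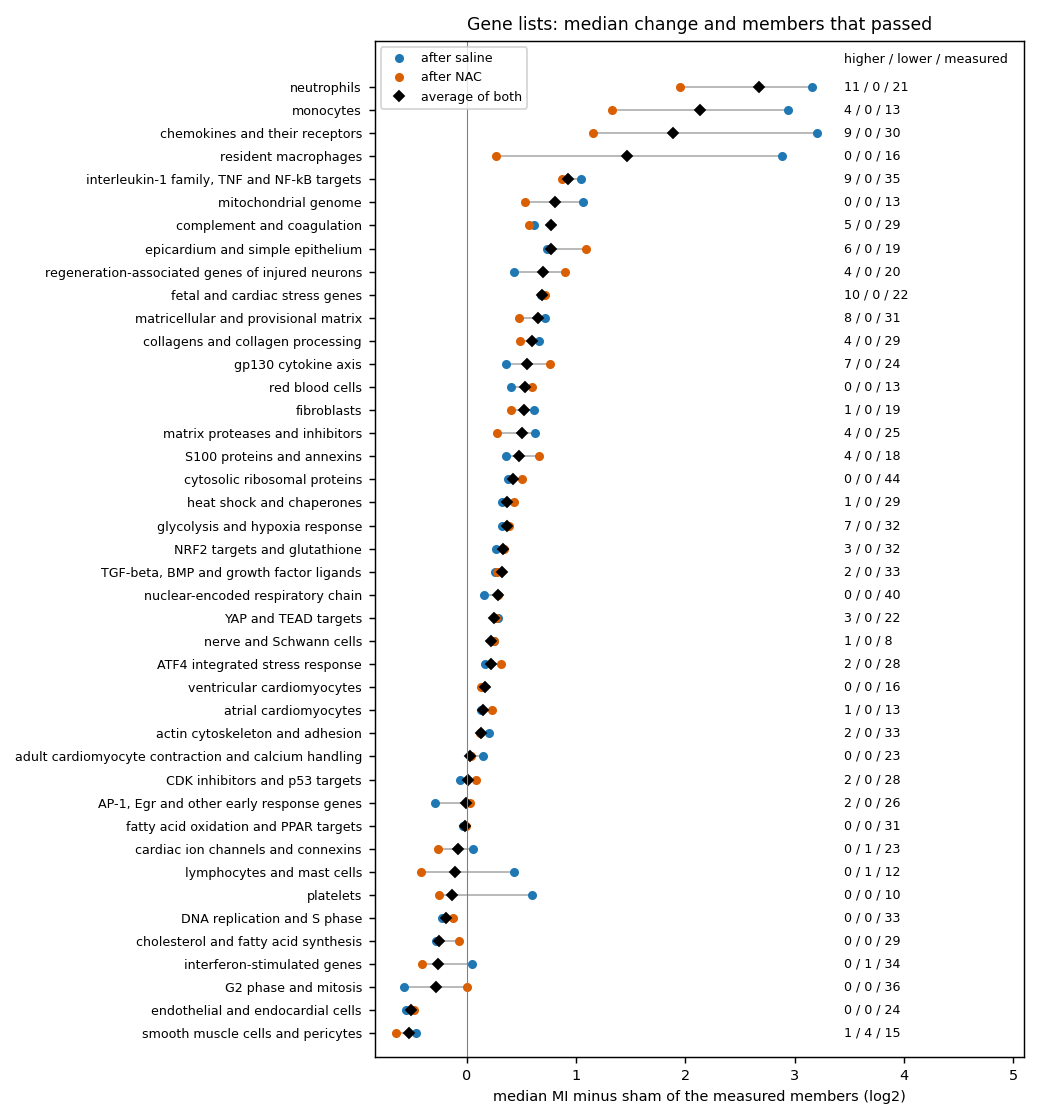
Median change after MI (log2, x axis) of the measured members of 42 gene lists, after saline (blue), after NAC (orange) and averaged (black diamonds), with the numbers of members that passed as higher, passed as lower and were measured on the right. Neutrophil markers are at the top with 11 of 21 higher and a median of 2.67, and smooth muscle and pericyte markers at the bottom with 1 higher and 4 lower of 15 and a median of -0.53.

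The remaining lists had few calls or none. Of 33 genes of the actin cytoskeleton 2 rose (Coro1a and Lmna), of 33 growth factor genes 2 (Csf1 and Gdf6), of 22 targets of YAP and TEAD 3 (Ankrd1, Ccn2 and Myof), of 8 nerve and Schwann cell markers 1 (Mbp) and of 13 atrial markers 1 (Nppa), and none of these fell. The calls of Coro1a, Lmna, Gdf6, Myof and Mbp did not remain without each library in turn. No member passed in either direction among 29 genes of cholesterol and fatty acid synthesis (median -0.25), 13 red cell markers (median 0.53) or 10 platelet markers (median -0.14).

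The white cell lists had larger medians after saline than after NAC. They were 3.16 and 1.95 for neutrophils, 2.94 and 1.33 for monocytes and 2.88 and 0.27 for resident macrophages. For the cardiac stress list they were 0.68 and 0.72, and for the epicardial and epithelial list 0.73 and 1.09. NAC sham 2 and NAC MI 2, the libraries that stood apart for white cell markers, are both in the NAC groups, and no gene differed between the treatments by the adjusted test without a block.

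The number of genes that passed depended on single libraries, in both directions. With 1 library left out, between 127 (without saline MI 1) and 773 (without saline sham 3) genes were higher, and between 6 and 790, without the same 2 libraries, were lower. Of the 319 rises 126 passed without each library in turn, and of the 92 falls 5 did, namely Vtn, Rgs5, Nup210, Arhgap18 and Gpr20, the last 3 of which were named after their values were seen. Of the 106 members of the 42 lists that passed, 56 passed without each library in turn. The number that did was 8 of 11 for neutrophils, 8 of 10 for cardiac stress genes, 6 of 9 for chemokines, 5 of 9 for the interleukin-1 list, 5 of 7 for the gp130 list, 4 of 8 for the matricellular list, 4 of 6 for the epicardial and epithelial list, 3 of 7 for glycolysis and hypoxia and 2 of 4 for monocytes. Of 29 lists with a call, 10 kept none. They were the lists of ion channels, NRF2, ATF4, heat shock, CDK inhibitors and p53, and interferon-stimulated genes. The others were those of collagens, actin cytoskeleton, lymphocytes and mast cells, and nerve and Schwann cells. Without NAC sham 2 and NAC MI 2, 689 genes were higher and 109 lower, and 295 of the 319 and 64 of the 92 were among them. Without saline sham 3 as well, 1248 were higher and 935 lower, among them 316 of the 319 and 87 of the 92.

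**Figure D5:**
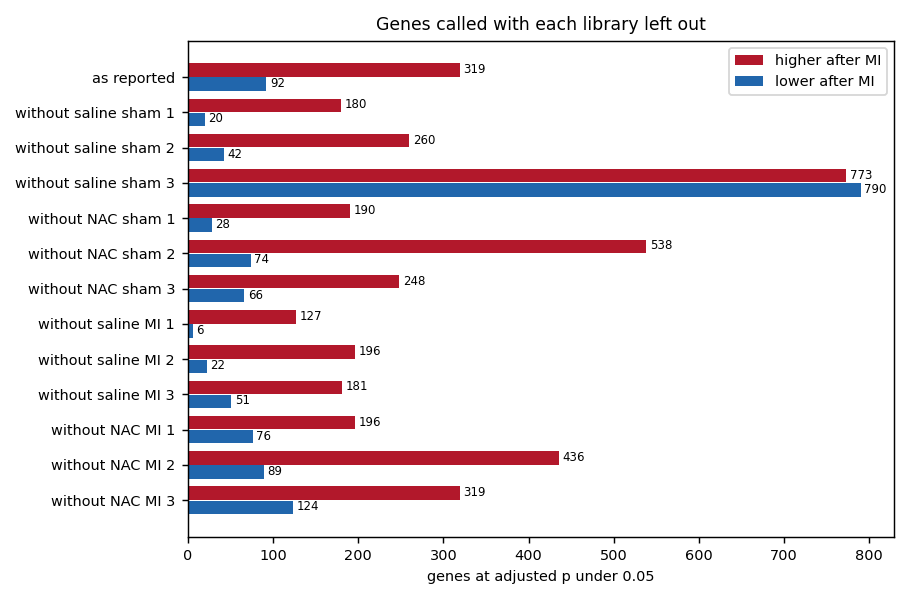
Number of genes at an adjusted p under 0.05 (x axis), higher after MI in red and lower in blue, with all 12 libraries and with each library left out in turn (y axis). The counts fall to 127 and 6 without saline MI 1 and reach 773 and 790 without saline sham 3, against 319 and 92 with all libraries.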

How the data were processed

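The deposited table held a signal for 52336 genes in 12 libraries: reads per gene over 1 size factor per library, a division done by the authors, as the values show. Multiplied by that factor, 100% of the values came within 0.01 of whole reads. Per the submitters' processing notes, the build was mm10 and the tools were DESeq2 1.44.0 and STAR 2.7.10a; the gene counter, annotation and strand setting are not given in the sources used here, so overlapping, antisense and near-identical genes are uncertain. Symbols and positions came from GENCODE on GRCm38 (52079 identifiers matched) and promoters from RefSeq.

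Genes with a mean of at least 10 over the 12 libraries were kept, which left 14996. Values were transformed as log2(value + 1), so that changes of low genes are understated, and were fitted with limma 3.58.1 in R 4.3.3 (trended variance) as 4 group means. The tested contrast was the mean of the changes after saline and after NAC, two-sided, with Benjamini-Hochberg adjustment over all genes tested. "Rose" or "fell" means an adjusted p under 0.05. Recovered reads were also tested with edgeR 4.0.16 and DESeq2 1.42.0. Read shares were compared by exact permutation of surgery within treatments. Intervals on reads cover counting error only.

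The comparison, the 42 gene lists (29 of pathways, 13 of cell types; 1031 of 1036 symbols matched) and the rule for named genes were chosen with earlier results of these data known. Some genes are on more than 1 list. The rule took the 15 largest rises and 15 largest falls that passed, moved the same way after both treatments, reached a mean of 50 in the higher surgery and had no predicted or clone name. It added the 3 smallest p-values of each list (the 2 smallest where none passed) and Nppa, Nppb, Myh6, Myh7, Mki67, Ccnb1, Cdk1, Hmox1 and Slc7a11, and a part of these genes is printed. Some genes are not reported here. Tnnt2 is the smallest p of its list. Further members of a list that passed are named as its remaining calls.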

Additional observations from a re-analysis of the deposited data

Results flagged for a closer look

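Values, for genes as log2(value + 1), were compared among the 6 libraries of each surgery by Dixon's ratio of the gap to the range. The limit was its 95% critical value, which chance exceeds in about 1 of 20 sets. Gene values are printed below as normalized counts. Of 244 sets (genes with printed values and cell type scores, which are mean log2 values of a list), 54 exceeded it, 35 of them through NAC MI 2 and 9 through NAC sham 2. The genes are not independent, so these counts share their libraries.

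NAC MI 2 was the lowest MI library for Arg1 (75.8 normalized counts), Ccl6 (45.5), Ccr2 (20.2), Cd14 (96.0), Csf3r (56.8), Cx3cr1 (48.0), Cxcr2 (35.4), F13a1 (99.8), Fgr (17.7), Hmox1 (209.7), Hp (87.2), Mmp9 (83.4), Pf4 (68.2), S100a8 (299), S100a9 (297) and Spp1 (229.9), most of them leukocyte genes. It was also lowest for Cmpk2 (46.7), Pcdh17 (117), Slc28a2 (94.7) and Sox7 (597). Its scores were the lowest of the 6 for neutrophils (5.49), monocytes (5.74), resident macrophages (6.05), endothelial and endocardial cells (10.3) and platelets (3.46). It was the highest MI library for Akr1b8 (630.3), Anxa8 (652), Dmkn (534), Krt14 (898), Krt18 (1172), Krt19 (1709), Krt7 (1609), Krt8 (1742) and Myh7 (16977), and for the score of epicardium and simple epithelium (10.4).

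NAC sham 2 was the highest sham library for Cd5l (8.76), Cxcl14 (7.88), Il1b (169.9), Lgals3 (370.5), Marco (37.7), Runx1 (111), Serpinb2 (14.01) and Spp1 (165), and for the resident macrophage score (8.88). Saline sham 3 was the highest sham library for Cxcl5 (7.14), Sprr1a (2.38) and Vtn (168) and the lowest for Kif11 (519) and Mki67 (1139). The remaining sets were those of S100a9 in saline sham 1 (37.7, lowest), Gdf6 in NAC sham 1 (14.03, lowest) and, in NAC MI 3, Lmna (2728), Ptprn (45.2) and Slc16a3 (352), each lowest.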

How the results depend on the processing

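The counts of 319 higher and 92 lower genes were within 1.5 times of these values with a pseudocount of 5, a mean of at least 50, TMM scaling, edgeR and 2 groups by surgery. They were 679 and 539 with DESeq2 and 2156 and 2031 with array quality weights, which ran from 0.250 for NAC sham 2, 0.268 for saline sham 3, 0.451 for NAC MI 2, 0.486 for NAC MI 3 and 0.562 for saline sham 2 to 4.70 for saline MI 1. Rises made up 77.6% of the calls, and 55.7% and 51.5% of them under these 2 settings. The lower genes numbered 59 with no filter on low values and 159 in an additive model of surgery and treatment. Leaving out 1 library gave 127 to 773 higher genes, 6 to 790 lower genes and 0 to 4 genes that differed between treatments. Without NAC sham 2 and NAC MI 2 there were 689 higher genes. Without saline sham 3 as well there were 1248 higher, 935 lower and 6 that differed between treatments, and DESeq2 gave 1 of these. The mitochondrial read share differed by 6.42 to 11.4 percentage points with 1 library left out, with exact permutation p-values of 0.01 to 0.09. Over all alternatives and named genes, 2321 values kept their side of the threshold, 215 lost the call, 75 gained it and none that was called changed its direction. Of the list medians 953 moved by less than 1 SD of the list's score within groups and 13 by more. The cause of these shifts was not tested. In the arms left with 2 libraries, the spread was pooled over the 4 groups. Depth limits genes with few reads, such as Sprr1a with 2 reads after sham surgery. No paired analysis of MI against sham was possible, because no title prefix holds both surgeries and the meaning of the other title parts is not given. The title prefix, as a block added after the data were seen, leaves the effect of surgery without an estimate and gave 17 genes that differed between treatments.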

Other observations

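Of the 319 genes that rose, 220 were on none of the lists, and of the 92 that fell, 85 were. The genes named here were chosen after their values were seen. Chil1, a secreted chitinase-like protein of neutrophils, macrophages and injured epithelium, had the second smallest p of all genes. It stood at 10.1, 17.9 and 25.4 (lowest, median and highest library) after sham surgery and 143, 169 and 209 after MI (log2 3.23, SE 0.234, adjusted p = 2.75e-05 in limma), and its MI range was narrow even though NAC MI 2 is in it. Slpi, a protease inhibitor of mucosal surfaces, went from 1.98, 5.93 and 8.33 to 32.8, 50.6 and 68.2, again without overlap.

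A further 3 genes, known from stratified skin, are given as single rises with no list of skin genes behind them. Krt14, the keratin of basal skin cells, stood at 3.97, 9.53 and 32.1 after sham surgery and 103, 151 and 898 after MI (log2 3.98, SE 0.582, adjusted p = 0.00318 in limma). Gjb5, a connexin gene of skin, went from 0 to 5.8 to 11.2 to 138, and Dmkn, a secreted skin protein, from 3.57 to 12.9 to 62.4 to 534. The surgeries did not overlap for these 3 genes, and NAC MI 2 held the highest value of each. Without NAC MI 2 the changes were 3.52 for Krt14, 3.61 for Gjb5 and 3.02 for Dmkn on the log2 scale, and each passed.

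Nup210, a nuclear pore protein, was among the falls that passed without any single library. It stood at 449, 675 and 892 after sham surgery and 229, 333 and 368 after MI (log2 -1.09, SE 0.194, adjusted p = 0.0104 in limma).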
